A study of Mus musculus with 8 samples.

Results

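The 9 complement genes C1qa, C1qb, C1qc, C2, C3, C4b, Cfb, Cfi and Serping1 were described in renal cortex of aged and young mice. They were chosen by symbol as components and regulators of complement that the kidney makes, and are 9 of the 22609 genes in the count tables. RNA-Seq was performed on kidney cortex of 4 aged and 4 young male C57BL6 mice without treatment, one library per mouse. The labels give an age of 30 months for aged mice and about 5 months for young mice, and the study's methods give a mean for the aged mice that is slightly higher. No transgene or deletion is named for either group. Values are in CPM, the read pairs of a gene per 1e+06 read pairs counted on all genes, after TMM normalization. To be called, a gene needed an adjusted p (Benjamini-Hochberg) under 0.05 in edgeR's quasi-likelihood test and a fold change above 1.5.

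Complement is a cascade of plasma proteins that tags surfaces for uptake by phagocytes, recruits leukocytes and can perforate membranes. The classical pathway starts when C1q, with its proteases C1r and C1s, binds antibody or altered surfaces. The lectin pathway starts from sugar-binding proteins, and the alternative pathway amplifies from C3 itself through factor B and factor D. All of them converge on enzymes that cleave C3. Liver is the main source of the circulating proteins, while kidney tubules are known to make C3, factor B and other components locally, and tissue macrophages are known to make C1q.

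The libraries held 14820804 to 19018543 read pairs on genes in aged mice and 15152597 to 19821429 in young mice. The floor of 3 counts was equal to 0.151 to 0.202 CPM, a limit that covers counting error only. All 9 members lay far above it in every mouse, with at least 58 counts. Of all genes, 287 of the 13944 tested changed, 163 higher and 124 lower in the aged mice, and the median log2 fold change was 0.029. With library size as the only scaling 488 genes changed, 368 higher and 120 lower. Markers of proximal tubule (Slc34a1, Lrp2) and thick limb (Umod) were read in every library, as the label cortex requires. Aged mouse 1 stood apart, with the fewest proximal tubule counts and the most adipocyte counts, and aged mouse 4 had the most counts of several liver and macrophage genes. Results on the members that rest on these mice are therefore also given without them, as are calls of other complement genes that they change.

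Of the 9 members 3 rose in the aged mice, namely C3, C4b and Cfi, and 0 fell. Over all genes tested 2.06% were called in either direction and 1.17% were called higher. The log2 fold change was above 0 in 8 of the 9 members, as in 54.1% of all genes, and its median over the members was 0.54. In 4 of the 9, C2 included, each aged mouse exceeded each young mouse, which 8.85% of all genes showed. At an unadjusted p under 0.05 there were 5 members, while 25.5% of all genes tested passed that mark. The same 3 members, and 0 lower ones, were called by DESeq2, by limma-voom and without aged mice 1 and 4. These fits also called more genes over all, namely 873 of 13944, 483 of 13944 and 844 of 14139 in the same order. With any one young mouse left out 0 members were called by edgeR, 5 or 6 had an unadjusted p under 0.05, and between 8 and 35 genes were called among all genes. Because the tissue was sequenced in bulk, more RNA per cell and more cells of a type cannot be told apart for any of these genes.

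**Figure D1:**
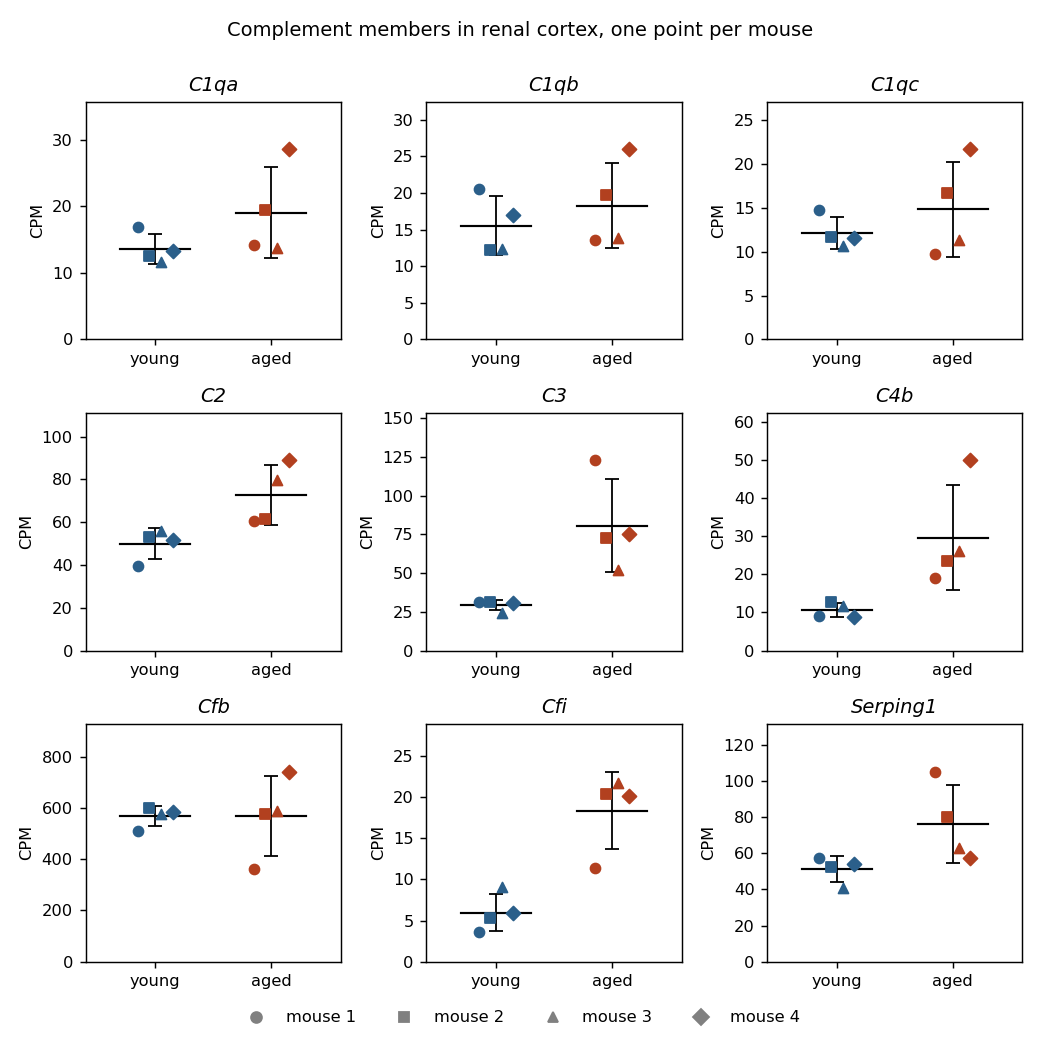
Level of each complement member in young (blue) and aged (red) mice, in CPM on axes that start at 0, with one symbol per mouse and the mean with its SD (n = 4) in black. The 4 aged mice lie above the 4 young mice in C2, C3, C4b and Cfi, and the groups overlap in the other 5 genes.

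C3 is the protein on which the pathways converge, and its fragment C3b marks surfaces. It stood at 123, 72.3, 52.2 and 75.3 CPM in aged mice 1 to 4 and at 31.4, 31.4, 24.4 and 30.4 CPM in young mice 1 to 4. The groups did not overlap, and aged mouse 1 was the highest of all. Mean C3 rose from 29.4 ± 3.36 CPM to 80.6 ± 29.8 CPM (SD, n = 4 each), a log2 fold change of 1.45 (standard error 0.23, edgeR adjusted p = 0.0267), and it ranked at 78 by p among all genes tested. An exact permutation test of C3 gave p = 0.0286, the smallest that 4 against 4 mice allow. Without aged mouse 1 the log2 fold change of C3 was 1.18 (edgeR adjusted p = 0.00905), and without aged mice 1 and 4 it was 1.08 (edgeR adjusted p = 0.00538). The call held without any one aged mouse, and it was lost without young mouse 1, 2, 3 or 4, where the edgeR adjusted p lay between 0.0757 and 0.102. In mm9, C3 is found at 57343397 to 57367559 of chromosome 17, minus strand, and 41 exons make up the longest coding transcript.

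C4b, the complement C4 of mouse plasma, is cleaved by C1s and joins C2 in the enzyme that cleaves C3 in the classical and lectin pathways. It stood at 19.1, 23.4, 26.0 and 49.8 CPM in aged mice 1 to 4 and at 9.18, 12.6, 11.6 and 8.86 CPM in young mice 1 to 4. No aged mouse overlapped the young range, and aged mouse 4 lay well above the other aged mice. Mean C4b rose from 10.6 ± 1.85 CPM to 29.5 ± 13.8 CPM (SD, n = 4 each), a log2 fold change of 1.48 (standard error 0.29, edgeR adjusted p = 0.0397). Without aged mouse 4 the log2 fold change of C4b was 1.11 (edgeR adjusted p = 0.0104). The call of C4b was lost without aged mouse 2 or 3 (edgeR adjusted p = 0.0589 and 0.0681) and without any one young mouse (0.0923 to 0.130).

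C4b has a close copy, C4a, which lies 65209 bases away on the same strand of chromosome 17 of mm9 (C4b 34865325 to 34880827, C4a 34946037 to 34960409). The C4b coding sequence was 96.1% identical to the C4a transcript over 5207 aligned positions, and 16.4% of its 100-nt windows occurred in C4a exactly, so a read inside such a window cannot be assigned by its own bases. A stretch in which the copies do differ is shown because such positions are what lets a read pair be assigned to one of them. It covers positions 2705 to 2764 of the C4b coding sequence, and capitals mark the 13 bases that differ.
C4b: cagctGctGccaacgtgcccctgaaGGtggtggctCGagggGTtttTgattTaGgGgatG
C4a: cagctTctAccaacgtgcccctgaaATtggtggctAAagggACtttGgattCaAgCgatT
C4a had 16, 7, 16 and 78 counts in aged mice 1 to 4 and 27, 16, 57 and 25 counts in the young mice. These counts were low beside those of C4b, which were 359 to 914 in aged and 149 to 239 in young mice, and the groups overlapped. The log2 fold change of C4a was -0.29 (standard error 0.72, edgeR adjusted p = 0.821). Transcripts were also searched against the mm9 genome, where windows across exon joins find no match in a copy with introns. In this search none of the other 8 members had a stretch inside a copy of at least 98% identity over 100 nt elsewhere in mm9. For C4b 9.81% of the windows did, a share that is not comparable with the 16.4% taken between transcripts and that leaves such windows out.

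C2 and Cfb encode the related serine proteases that complete the C3-cleaving enzymes, C2 in the classical and lectin pathways and factor B in the alternative pathway. The genes are neighbors on chromosome 17 of mm9 (minus strand), 85 bases apart (Cfb 34993319 to 34999463, C2 34999549 to 35035397), and their values are given in turn. C2 stood at 60.6, 61.4, 79.9 and 88.8 CPM in aged mice 1 to 4 and at 39.6, 52.8, 55.7 and 51.7 CPM in young mice 1 to 4. Each aged mouse was above each young mouse, the closest pair being aged mouse 1 and young mouse 3. The log2 fold change of C2 was 0.54 (standard error 0.15, 95% confidence interval 0.19 to 0.89), and its edgeR adjusted p of 0.0827 did not pass the threshold. C2 passed both thresholds without aged mouse 1 (log2 fold change 0.62, edgeR adjusted p = 0.0470) and in no other fit with one mouse left out. It was 0.43 without aged mouse 4, its highest mouse (edgeR adjusted p = 0.104), and 0.50 without aged mice 1 and 4 (edgeR adjusted p = 0.0736).

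Cfb was the most abundant member, at 363, 575, 590 and 742 CPM in aged mice 1 to 4 and 510, 602, 577 and 586 CPM in young mice 1 to 4. The lowest and the highest of all 8 mice were both aged, and the aged range enclosed the young one. Mean Cfb was 567 ± 156 CPM in aged and 569 ± 40.2 CPM in young mice (SD, n = 4 each), a log2 fold change of -0.0032 (standard error 0.19, edgeR adjusted p = 0.993) that was 0.098 with library size as the only scaling. Its 95% confidence interval ran from -0.44 to 0.43, so with 4 mice per group changes of either sign within these limits remain possible. Exons of C2 and of Cfb overlap a further gene model on the same strand, Gm20547, which is not among the genes counted. Whether read pairs there were counted was not tested.

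C3 was also set against Cfb, its partner in the alternative pathway. There were 0.338, 0.126, 0.0885 and 0.102 CPM of C3 per CPM of Cfb in aged mice 1 to 4, against 0.0616, 0.0521, 0.0423 and 0.0520 in the young mice. Every aged ratio exceeded every young one, and aged mouse 1, with the most C3 and the least Cfb, had the highest. Cfb made up 72.5% to 76.6% of the summed CPM of the 9 members in young mice and 50.4% to 67.7% in aged mice. The sum itself was 704 to 793 CPM in young and 719 to 1109 CPM in aged mice, so its ranges overlapped.

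C1qa, C1qb and C1qc encode the chains that assemble into C1q. They lie in tandem on chromosome 4 of mm9 (minus strand) within 18.7 kb (136436044 to 136454718), each with 3 exons, in the order C1qb, C1qc and C1qa. C1qa stood at 14.2, 19.5, 13.8 and 28.5 CPM in aged mice 1 to 4 and at 16.8, 12.6, 11.6 and 13.2 CPM in young mice 1 to 4. The values of C1qb were 13.6, 19.6, 13.9 and 25.9 CPM in aged mice and 20.5, 12.3, 12.3 and 17.0 CPM in young mice. For C1qc they were 9.72, 16.7, 11.3 and 21.7 CPM in aged mice and 14.8, 11.7, 10.6 and 11.5 CPM in young mice. In all 3 genes aged mouse 4 was the highest, aged mouse 2 was the next of the aged mice, young mouse 1 was the highest of the young mice, and the groups overlapped. The log2 fold changes were 0.49 (standard error 0.24), 0.23 (0.25) and 0.29 (0.25) for C1qa, C1qb and C1qc, with edgeR adjusted p of 0.233, 0.574 and 0.479. The upper limits of their 95% confidence intervals were 1.03, 0.79 and 0.84. Without aged mouse 4 the log2 fold changes lay lower, at 0.22, 0.013 and 0.044, the lowest of the fits that left out one mouse.

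The C1q genes varied together from mouse to mouse. After the mean of each group was subtracted, log2 CPM correlated between C1qa and C1qb at 0.94, between C1qa and C1qc at 0.96 and between C1qb and C1qc at 0.90 over the 8 libraries, which share depth and dissection with all other genes. The ratio of C1qa to C1qc was 1.17 to 1.46 in aged and 1.08 to 1.15 in young mice, and that of C1qb to C1qc was 1.18 to 1.39 and 1.05 to 1.48.

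The 250 bases before the transcription start of C1qb, C1qc and C3 were read from the promoter table of RefSeq (GRCm38.p6), in which these 3 of the 9 members matched. C1qb is shown as a gene of the C1q cluster, and C3 because it rose. The window of C1qc is not shown because 151 of its bases lie inside the mm9 gene model of C1qc used here, which starts farther upstream. Both sequences shown occurred once on their chromosome in mm9, on the minus strand and outside the gene model, at chr4:136442116-136442365 for C1qb and chr17:57367560-57367809 for C3. The letters searched on both strands were GGG and CC with any 5 bases between (the NF-kB type), TTGCNNAA (the C/EBP type), TTCNNNGAA (the STAT type), GAAA repeated after any 2 bases (the interferon type), GAGGAA (the PU.1 type), CCAAT and TATAAA. Capitals mark every match.
C1qb: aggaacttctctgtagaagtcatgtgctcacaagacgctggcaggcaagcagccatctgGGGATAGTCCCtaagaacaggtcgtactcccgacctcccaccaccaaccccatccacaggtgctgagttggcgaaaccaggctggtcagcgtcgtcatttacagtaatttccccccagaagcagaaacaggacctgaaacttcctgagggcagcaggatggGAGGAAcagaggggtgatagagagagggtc
C3: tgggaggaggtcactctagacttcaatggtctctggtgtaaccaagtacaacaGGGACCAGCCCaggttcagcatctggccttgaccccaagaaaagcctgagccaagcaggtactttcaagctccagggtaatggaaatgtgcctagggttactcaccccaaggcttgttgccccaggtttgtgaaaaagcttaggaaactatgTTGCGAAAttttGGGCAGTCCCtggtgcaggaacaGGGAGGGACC
C1qb held GAGGAA once, 30 to 25 bases before the start. Among the 27025 promoters given by RefSeq, 23.1% held these letters. C3 held TTGCNNAA once, 45 to 38 bases before its start, as did 9.55% of promoters, and the NF-kB type at 3 places. The NF-kB type also occurred at 1 place in C1qb, and there and at the place in C3 farthest from the start overlapping matches were marked as one run. It was found in 45.4% of promoters, so its presence is common. The STAT and interferon types, CCAAT and TATAAA, held by 7.18%, 3.04%, 34.5% and 13.0% of promoters, had 0 matches in both windows. A match is a description of letters and was not tested as a binding site.

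Cfi and Serping1 encode secreted regulators. Factor I is the protease that, with cofactors, inactivates C3b and C4b. Cfi stood at 11.3, 20.3, 21.6 and 20.1 CPM in aged mice 1 to 4 and at 3.58, 5.29, 9.04 and 5.91 CPM in young mice 1 to 4. The groups did not overlap, aged mouse 1 lay below the other aged mice, and those lay close together at 20.1 to 21.6 CPM. Mean Cfi rose from 5.95 ± 2.28 CPM to 18.3 ± 4.72 CPM (SD, n = 4 each), a log2 fold change of 1.63 (standard error 0.29, edgeR adjusted p = 0.0357). Without aged mouse 1 it was 1.80 (edgeR adjusted p = 0.0122). The call of Cfi was lost without aged mouse 2 or 3 (edgeR adjusted p = 0.0622 and 0.0675) and without any one young mouse (0.0539 to 0.120). Cfi lies on the plus strand of chromosome 3 of mm9 (129539655 to 129578246) with 14 exons.

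Serping1 encodes C1 inhibitor, which blocks C1r, C1s and the proteases of the lectin pathway. It stood at 105, 79.9, 62.9 and 57.3 CPM in aged mice 1 to 4 and at 57.5, 52.4, 41.0 and 53.9 CPM in young mice 1 to 4. The groups overlapped by a small margin, since aged mouse 4 lay just below young mouse 1, while aged mouse 1 was again the highest. The log2 fold change of Serping1 was 0.58 (standard error 0.19, 95% confidence interval 0.14 to 1.01, edgeR adjusted p = 0.114), and without aged mouse 1 it was 0.38 (edgeR adjusted p = 0.134). In mm9, Serping1 has 8 exons and is found at 84605544 to 84615601 of chromosome 2, minus strand.

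Levels of different genes were compared per length, as CPM per kilobase of the longest coding transcript. In young mice the order was Cfb at 208 ± 14.7, Serping1 at 29.0 ± 4.03, C2 at 18.9 ± 2.68, C1qb at 14.3 ± 3.68, C1qa at 13.0 ± 2.18, C1qc at 10.1 ± 1.52, C3 at 5.73 ± 0.655, Cfi at 2.87 ± 1.10 and C4b at 1.97 ± 0.344 (CPM per kb, SD, n = 4). Neighbors whose ranges over the young mice overlapped were C2 and C1qb, C1qb and C1qa, C1qa and C1qc, and Cfi and C4b. In aged mice C3 reached 15.7 ± 5.81 CPM per kb and stood between C1qb at 16.8 ± 5.36 and C1qc at 12.3 ± 4.52, while Cfi (8.84 ± 2.27) and C4b (5.49 ± 2.57) again had the lowest means, and the ranges of all neighbors in the aged order overlapped except those of Cfb and Serping1. Cfb was the highest in each of the 8 mice.

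Members that were higher in the same aged mouse formed different groupings. Aged mouse 1 was the highest aged mouse in C3 and Serping1 and the lowest in C2, C4b, Cfb, Cfi, C1qb and C1qc. Aged mouse 4 was the highest in C1qa, C1qb, C1qc, C2, C4b and Cfb and the lowest in Serping1. With group means subtracted, log2 CPM correlated at 0.81 between C3 and Serping1, at 0.77 between C2 and C4b and at -0.85 between Cfb and Serping1 over the 8 libraries. These are descriptions of a small number of mice, and aged mice 1 and 4 have a large share in them.

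**Figure D2:**
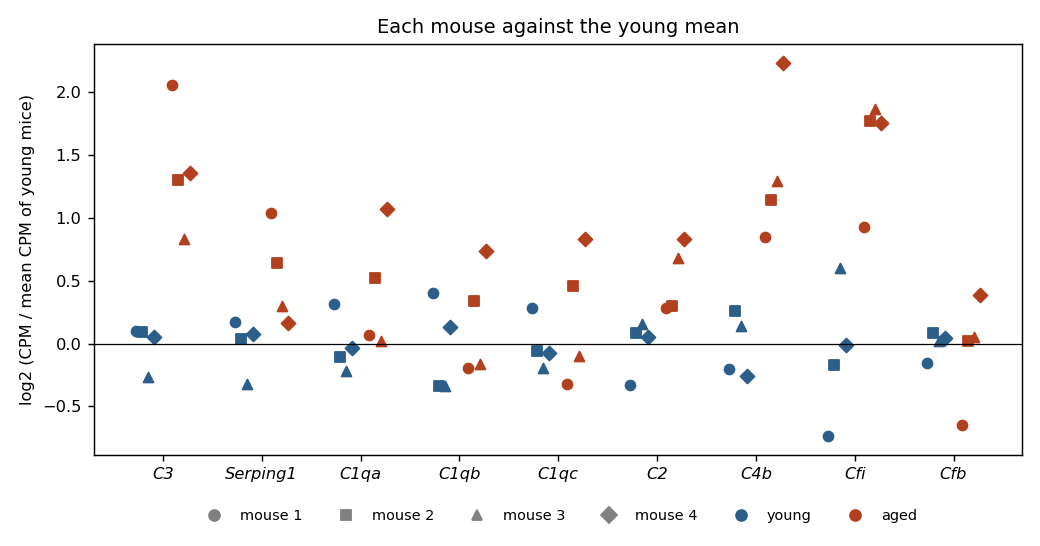
Each mouse as log2 of its CPM over the mean CPM of the young mice, for the 9 complement members. Young mice are in blue and aged mice in red, with one symbol shape per mouse number. The number was not used to pair mice across groups. Aged mouse 1 (red circle) lies highest in C3 and Serping1 and lowest in Cfb, and aged mouse 4 (red diamond) lies highest in the C1q genes, C2, C4b and Cfb.

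Macrophage markers were set beside the C1q genes. Of 15 listed markers 15 were tested, and 0 rose and 1 fell in edgeR, where 2.06% of all genes tested were called. None was at 0 in any library. An unadjusted p under 0.05 was found in 6 of them, and in 25.5% of all genes tested. The log2 fold change was above 0 in 12 of the 15 markers, as in 54.1% of all genes. Its median over the markers was 0.52. DESeq2 also called Mrc1 higher. The summed level of the 15 markers was 139 to 245 CPM in aged and 157 to 206 CPM in young mice. The marker that fell was Csf1r, the receptor for macrophage colony-stimulating factor, at 24.7, 33.6, 23.9 and 41.7 CPM in aged mice 1 to 4 and 75.3, 47.7, 52.6 and 72.6 CPM in young mice 1 to 4. All aged mice lay below all young mice, as 10% of all genes did, and the aged level was 0.499 times the young one (edgeR adjusted p = 0.0472). The call of Csf1r held without aged mouse 1 or 4 and was lost in the other 6 fits with one mouse left out, up to an adjusted p of 0.132.

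C1q transcripts per macrophage transcript therefore depended on the marker. The summed CPM of the C1q genes per CPM of Csf1r was 1.52, 1.66, 1.63 and 1.83 in aged mice 1 to 4, against 0.693, 0.766, 0.656 and 0.575 in the young mice, without overlap. Relative to the summed level of the other 14 markers it was 0.278 to 0.374 in aged and 0.311 to 0.416 in young mice, with overlap. Those 14 markers summed to 135, 153, 115 and 204 CPM in aged mice 1 to 4 and 131, 109, 111 and 100 CPM in young mice 1 to 4, and aged mouse 4 was the highest, as in the C1q genes. The part of macrophage number in the C1q levels was not tested.

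**Figure D3:**
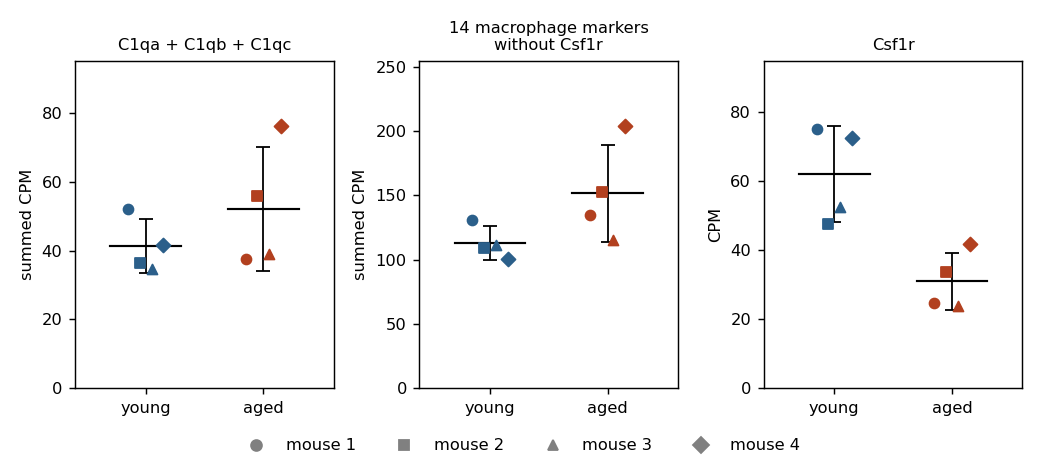
Summed CPM of C1qa, C1qb and C1qc (left), summed CPM of 14 macrophage markers without Csf1r (middle) and CPM of Csf1r (right), one symbol per mouse with the mean and SD (n = 4) in black and axes that start at 0. Aged mouse 4 is highest of all mice in the left and middle panels, and in the right panel the 4 aged mice, at 23.9 to 41.7 CPM, lie below the 4 young mice, at 47.7 to 75.3 CPM.

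Markers of other cells that make complement also differed between mice. Of 6 listed hepatocyte genes 4 were tested and 2 rose, where 1.17% of all genes tested were called higher. Alb had a log2 fold change of 1.22 (edgeR adjusted p = 0.0401) and Fgb one of 2.57 (edgeR adjusted p = 0.0171). DESeq2, which called 873 of 13944 genes, also called Apoa1 higher. The call of Alb was lost without aged mouse 2 (edgeR adjusted p = 0.0657), without any one young mouse (0.0841 to 0.130) and with the replicate number as a block (0.0802), and that of Fgb was lost without young mouse 1, 2 or 4 (up to 0.0855). The list summed to 85.9, 42.8, 21.1 and 47.2 CPM in aged mice 1 to 4 and 12 to 22.5 CPM in young mice. Serpina1a, the most abundant gene of that list, had a log2 fold change of 1.43 (edgeR adjusted p = 0.232), which was 0.48 without aged mouse 1, at 58.8 CPM the highest of all. Cps1 was at 0 in the 4 young mice and had 15, 10, 1 and 42 counts in aged mice 1 to 4, and Ahsg had 27 counts in aged mouse 4 and between 0 and 9 in the others. Without aged mouse 1, where the list sum was highest, the log2 fold change was 1.18 for C3 (edgeR adjusted p = 0.00905) and 1.64 for C4b (edgeR adjusted p = 0.0190). Without aged mouse 4 that of C3 was 1.49 (edgeR adjusted p = 0.0178), and that of C4b is given above. Alb and Fgb were called higher in both fits, at 1.17 and 2.51 without aged mouse 1 and at 1.04 and 2.69 without aged mouse 4. The part of RNA from liver in the levels of the members was not tested.

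Genes of adipocytes were read because Cfd, an adipocyte product, varied widely, so this list was chosen after those values were seen. Of its 6 genes 5 were tested and 0 were called by edgeR or limma-voom. All 5 had an unadjusted p under 0.05 in edgeR, as did 25.5% of all genes tested. DESeq2, which called 873 of 13944 genes, called Adipoq and Retn higher. The list summed to 382, 104, 34.3 and 57.5 CPM in aged mice 1 to 4 and 35.7, 29.6, 25.0 and 53.4 CPM in young mice 1 to 4, with Plin1 and Lep at 0 in young mouse 3. Adipoq had 37.6, 10.02, 1.55 and 6.10 CPM in aged mice and 0.863, 1.48, 0.204 and 2.60 CPM in young mice, so aged mouse 1 was again far above the rest. With group means subtracted, C3 correlated with Adipoq at 0.91 over the 8 libraries, and Serping1 did at 0.82. With the proximal tubule genes Slc34a1 and Lrp2 the values were -0.78 and -0.77 for C3, and -0.82 and -0.79 for Serping1. Aged mouse 1 has a large share in these values, which were not taken without it. Genes outside these lists reached similar values with C3, such as Slc30a4 at 0.95 and Mir1894 at 0.99. In aged mouse 3, where Adipoq was within the young range, C3 was at 52.2 CPM. The part of adipose tissue or of the proximal tubule share in the level of C3 or Serping1 was not tested.

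Proximal tubule genes varied with Cfb across mice. Of 8 listed 8 were tested and 0 were called by edgeR, and 1, Slc22a6, was called lower by DESeq2 and limma-voom and by edgeR without aged mouse 4. At an unadjusted p under 0.05 there was 1 gene, while 25.5% of all genes tested passed that mark. The list summed to 13912, 23807, 23277 and 27928 CPM in aged mice 1 to 4 and 25263 to 29019 CPM in young mice, lowest in aged mouse 1. Slc34a1, the sodium phosphate cotransporter of this segment, had 2481 CPM in aged mouse 1 and between 5429 and 7216 CPM in the other 7 mice. Deviations of Cfb correlated with those of Slc34a1 and of Lrp2 at 0.96 each over the 8 libraries. Aged mouse 1, the lowest in Cfb and Slc34a1, has a large share in these values, which were not taken without it. Without aged mouse 1 the log2 fold change of Cfb was 0.16 (edgeR adjusted p = 0.381). The share of proximal tubule in each sample was not tested as the source of the Cfb levels.

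**Figure D4:**
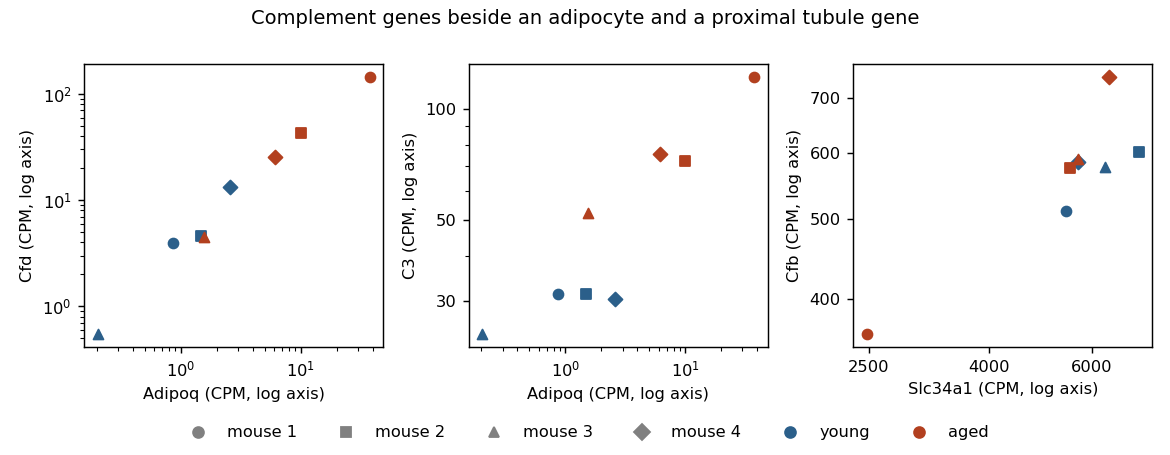
CPM of Cfd against Adipoq (left), C3 against Adipoq (middle) and Cfb against Slc34a1 (right) on log axes, one point per mouse, with young mice in blue, aged mice in red and one shape per mouse number. Aged mouse 1 (red circle) has the most Adipoq, Cfd and C3 and the least Slc34a1 and Cfb, and in the middle panel the other 3 aged mice also lie above the young mice in C3.

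The remaining lists gave the following. Of 8 B cell and plasma cell genes 4 were tested and 1 rose, Igj, the joining chain of secreted antibody, with a log2 fold change of 2.65 (edgeR adjusted p = 0.0311) and a call that was lost without any one young mouse (0.0720 to 0.118), and the list summed to 34.0 to 101 CPM in aged and 7.44 to 16.1 CPM in young mice. Over all genes tested 1.17% were called higher. The B cell genes Cd79a and Cd79b of this list were at most 1.04 CPM in every mouse. In the T cell list (7 tested), the neutrophil list (2 tested, with Mpo and Camp at 0 in every mouse), and the fibroblast (6), thick limb and distal tubule (6), collecting duct (6), podocyte (5), endothelium (6) and tubular injury (5) lists, 0 genes were called by edgeR. At an unadjusted p under 0.05 there were 2, 2, 3, 4, 1, 0, 1 and 2 genes in the same order, and 25.5% of all genes tested passed that mark. DESeq2 called Lck, S100a8, S100a9 and Vcam1 higher and Col1a1, Col3a1 and Calb1 lower in these lists, and limma-voom called the same lower genes alone. Without aged mouse 1 edgeR called Col1a1 and Col3a1 lower, and without aged mouse 4 it called Pdgfra, S100a8, Krt20, Spp1 and Vcam1 higher.

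The wider complement system was read from lists of 50 further genes, of which 33 were tested. Of these 1 rose and 0 fell in edgeR, where 2.06% of all genes tested were called. DESeq2 called 4 higher and 3 lower, and 873 of 13944 over all genes. An unadjusted p under 0.05 was found in 11 of the 33, and in 25.5% of all genes tested. The median log2 fold change of the 33 genes was 0.24. The gene that rose was Csmd1, a large membrane protein known as an inhibitor of complement, at 17.6, 12.2, 10.05 and 11.2 CPM in aged mice 1 to 4 and 4.87, 4.02, 3.40 and 3.19 CPM in young mice 1 to 4. Aged and young mice were far apart, and the highest aged value was again that of mouse 1. Its log2 fold change was 1.72 (standard error 0.22, edgeR adjusted p = 0.0140), it ranked at 22 by p among all genes, and with one mouse left out its adjusted p lay between 0.00623 and 0.0633, above the threshold without young mouse 1, 3 or 4.

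**Figure D5:**
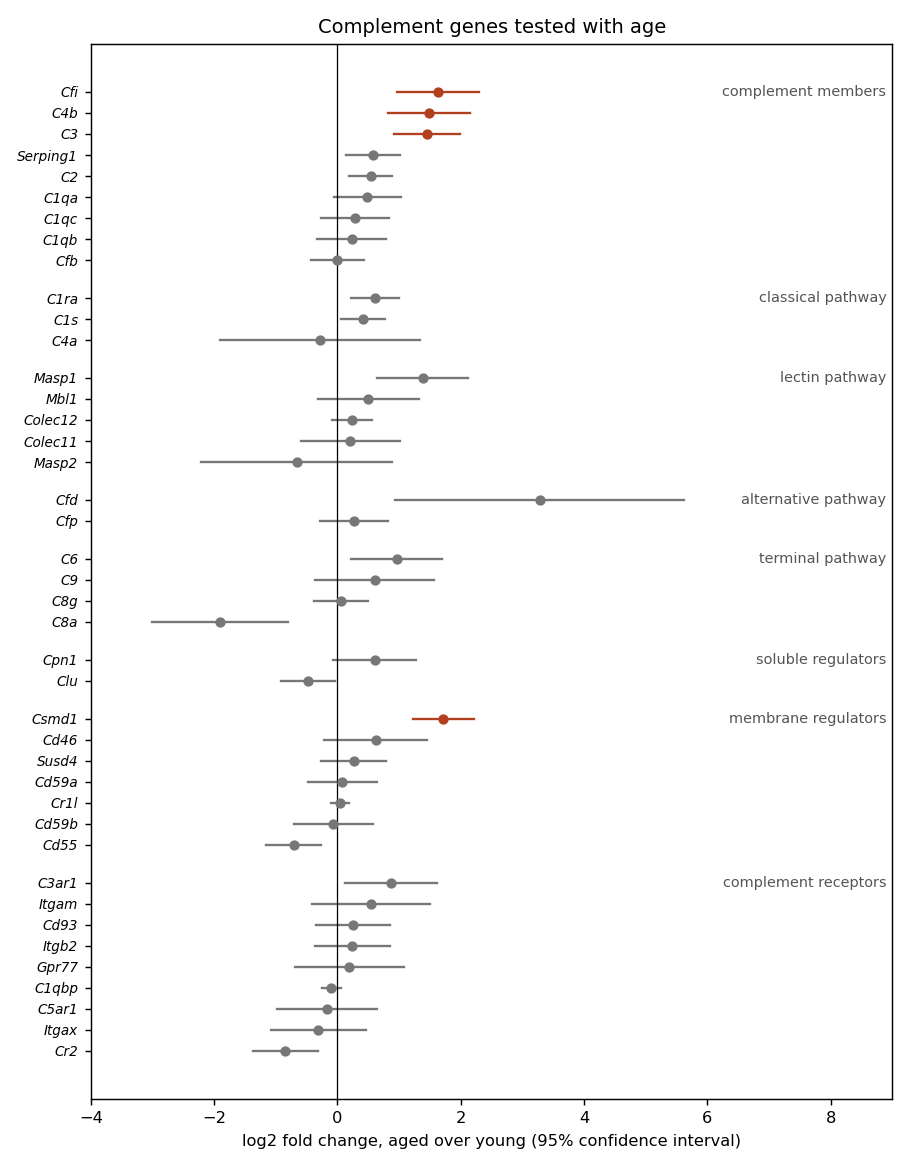
Log2 fold change (aged over young) with its 95% confidence interval for the 9 members and other complement genes tested, grouped by role, with genes called higher in red and the rest in grey. C3, C4b and Cfi among the members and Csmd1 among the others are red, and the widest intervals are those of Cfd and C4a.

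Upstream of C4, the C1 proteases C1ra and C1s were tested, and neither was called by edgeR although both had an unadjusted p under 0.05. C1ra, which DESeq2 and limma-voom called, had a log2 fold change of 0.60 (edgeR adjusted p = 0.0822). It passed without aged mouse 1 (0.69, edgeR adjusted p = 0.0485) and was 0.45 without aged mouse 2 (edgeR adjusted p = 0.115). Every aged mouse, at 12.3 to 19.5 CPM, was above every young mouse, at 8.02 to 10.9 CPM. In the genome search 19.6% of the 100-nt windows of C1ra lay inside a near-identical copy. C1s had 0.42 (edgeR adjusted p = 0.149) and overlapping groups, and both were called without aged mice 1 and 4. In the lectin pathway 5 of 9 genes were tested and 0 were called by edgeR, with 1 at an unadjusted p under 0.05, Masp1, which DESeq2 called. This protease of the pathway stood at 1.47 to 3.14 CPM in aged and 0.582 to 1.12 CPM in young mice, a log2 fold change of 1.38 (edgeR adjusted p = 0.0571). Masp1 passed without aged mouse 4 (edgeR adjusted p = 0.0303) and had an edgeR adjusted p of 0.0919 without aged mouse 2. Without aged mice 1 and 4 Masp1 and Mbl2 were called higher and Masp2 lower. The collectins Mbl1 and Colec12 had 0.50 and 0.24 (edgeR adjusted p = 0.395 and 0.313), and Mbl1 had 0.12 without aged mouse 4.

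In the alternative pathway Cfd encodes factor D, the protease that cleaves factor B. It stood at 146, 42.7, 4.49 and 25.7 CPM in aged mice 1 to 4 and 3.95, 4.55, 0.544 and 13.3 CPM in young mice 1 to 4. Values of the groups overlapped through aged mouse 3, and the spread was wide in both. The log2 fold change of Cfd was 3.28 (standard error 1.04, edgeR adjusted p = 0.103), between 2.10 and 4.15 with one mouse left out, and DESeq2 called it. Cfp, which encodes properdin, the stabilizer of this pathway's enzyme, had 0.27 (edgeR adjusted p = 0.510).

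Of 4 tested genes of the terminal pathway, whose products perforate membranes, 0 were called by edgeR, 2 had an unadjusted p under 0.05 and 1, C8a, was called by DESeq2. C8a had 4.57, 3.64, 2.83 and 13.0 CPM in aged mice 1 to 4 and 35.4, 16.7, 14.4 and 23.9 CPM in young mice 1 to 4. Each aged mouse was below each young mouse, with aged mouse 4 closest to the young range. The log2 fold change of C8a was -1.91 (standard error 0.49, edgeR adjusted p = 0.0667). It passed the threshold without aged mouse 4 (edgeR adjusted p = 0.00698) and was -1.74 without aged mouse 2 (edgeR adjusted p = 0.109). C6 had 0.96 (edgeR adjusted p = 0.118) and C8g 0.058 (edgeR adjusted p = 0.867). Hc, which encodes C5, was near the floor, with 23 counts in aged mouse 4 and at most 3 in the others.

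Of 3 other soluble regulators tested 0 were called by edgeR, DESeq2 or limma-voom, and 1 had an unadjusted p under 0.05 in edgeR. Clu, which encodes the terminal inhibitor clusterin, had -0.47 (edgeR adjusted p = 0.172), and Cpn1, a subunit of the enzyme that trims C3a and C5a, had 0.60 (edgeR adjusted p = 0.235), which was 0.30 without aged mouse 2 and was called higher without aged mice 1 and 4. On membranes Cd55, which speeds the decay of the C3-cleaving enzymes, was at 5.56 to 10.3 CPM in aged and 12.2 to 16.1 CPM in young mice (log2 fold change -0.71, edgeR adjusted p = 0.0776). It was called lower by DESeq2 and limma-voom and by edgeR without aged mouse 1 (adjusted p = 0.0399). Without aged mouse 2 or 3 its edgeR adjusted p was 0.120 and 0.0958. Cr1l and Cd59a had 0.046 and 0.077 (edgeR adjusted p = 0.676 and 0.864). The interval of Cr1l, from -0.10 to 0.19, was narrow.

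Of the complement receptors 9 were tested and 0 were called by edgeR, with 2 at an unadjusted p under 0.05, and DESeq2 called Cr2. Cr2, a receptor for C3 fragments, was at 1.28 to 2.15 CPM in aged and 2.36 to 3.47 CPM in young mice without overlap (log2 fold change -0.84, edgeR adjusted p = 0.0796). C3ar1, the receptor for C3a, had 3.73, 6.18, 3.63 and 9.92 CPM in aged and 3.39, 3.02, 3.81 and 2.66 CPM in young mice (log2 fold change 0.87, edgeR adjusted p = 0.150, and 0.48 without aged mouse 4). Aged mouse 4 was the highest and aged mouse 2 the next of the aged mice, as in the C1q genes. C1qbp and Cd93 had -0.10 and 0.25 (edgeR adjusted p = 0.359 and 0.574), and Cd93 had -0.12 without aged mouse 1.

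A list of 13 cytokines and transcription factors known to raise complement genes held 10 genes that could be tested. None was called by edgeR, DESeq2 or limma-voom. An unadjusted p under 0.05 in edgeR was found in 2 of the 10, and in 25.5% of all genes tested. Irf1 and Nfkb1 were higher in every aged mouse than in every young mouse, by small amounts, as 8.85% of all genes were. Their log2 fold changes were 0.35 (edgeR adjusted p = 0.0749) and 0.24 (edgeR adjusted p = 0.0858). Stat3 had 0.21 (edgeR adjusted p = 0.397). Il6, Tnf and Ifng were near the floor, at no more than 8 counts in any mouse. Cebpb, chosen after its values were seen, had 113 CPM in aged mouse 1 and between 19.4 and 26.6 CPM in the other 7 mice, and C3 was highest in the same mouse. Its part in the level of C3 was not tested.

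The genes most like the members in their pattern over the 8 libraries were found by Pearson correlation of log2 CPM, given as a description. For the mean of C1qa, C1qb and C1qc they were Cyth4 (0.98), Alpk1 (0.97), Lyz2 (0.97), Psmb8 (0.96) and I830012O16Rik (0.96), none of them called. For C3 they were Slc30a4 (0.99), Zfp119b (0.99), Mir1894 (0.98), Rab11fip2 (0.98) and Gpnmb (0.98). Of these Gpnmb rose, with a log2 fold change of 2.67 (edgeR adjusted p = 0.0460) from 0.176 to 1.16 CPM. The young mean of Gpnmb was at the floor of 0.151 to 0.202 CPM, so its fold change rests on few counts. For C4b they were Abcc6 (0.98), Dmxl2 (0.98), Il1rap (0.98), Ece1 (0.97) and Trappc6b (0.97), with log2 fold changes between 0.072 and 0.45 and none called.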

How the data were processed

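Renal cortex RNA of 4 aged and 4 young mice was sequenced after depletion of ribosomal RNA with a stranded kit. The authors aligned read pairs to mm9 with TopHat2 and counted them per RefSeq gene with HTSeq, and they deposited raw counts without normalization. Of these tools the submitters' notes give a version for CASAVA only (1.8.2). Read pairs placed on several sites were not counted on genes. As HTSeq recorded them, they made up 34.3% to 37.2% of aged and 36.5% to 39.1% of young libraries. Rows that name no gene were left out, and read pairs on no gene made up 22.6% to 29.9% of aged and 20.0% to 25.1% of young libraries. Groups and replicate numbers came from the sample titles. No libraries were duplicates (smallest chi-square per gene 8.98).

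Counts were tested in R 4.3.3 with edgeR 4.0.16 quasi-likelihood (TMM, filterByExpr with a minimum count of 10, all 8 libraries, no covariate, two-sided) and Benjamini-Hochberg adjustment over 13944 genes. Thresholds were an adjusted p of 0.05 and a fold change of 1.5, without the study's FPKM criterion. Log2 CPM used a prior count of 2. Exact permutation tests used 70 label orders. Alternatives were scaling by DESeq2 size factors, by upper quartiles or by library size only, robust fitting, other filters, DESeq2 1.42.0, limma-voom 3.58.1 with quality weights, the replicate number as a block, and each mouse left out. Leaving out aged mice 1 and 4 together was chosen after seeing the data. The scripts were tested on simulated data. Per-length levels, coordinates and copies used the GENCODE annotation of mm9, BLAST 2.17.0 and MAFFT 7.526, and the authors' RefSeq transcripts may differ in length.

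The members and gene lists were chosen with earlier results of these data known, so their counts are descriptions. Named genes were the members, every gene of a wider complement list that passed both thresholds, the 2 largest by mean CPM and the 2 with the smallest p in each such list, called marker genes, the 2 largest markers of lists that moved with a member, and the 5 genes most like C1q, C3 and C4b. A few genes under this rule are not reported here. The mice are separate animals, and litter, cage and dissection are not given in the sources used here.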

Additional observations from a re-analysis of the deposited data

Results flagged for a closer look

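In 10 of 110 groups of 4 mice, one mouse lay far from the other 3 by Dixon's test, where 5.5 were expected by chance. Each value is the mouse's gap to its nearest neighbor as a share of the group's range, both taken on the log2 CPM scale. Among the members, young mouse 3 was lowest in C3 (0.870, at 24.4 CPM), and aged mouse 1 was lowest in Cfi (0.885, at 11.3 CPM).

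Among the other complement genes, aged mouse 1 was lowest in Colec11 (0.841) and highest in Cd46 (0.949) and Susd4 (0.940), which encode a collectin and a pair of membrane proteins. Aged mouse 4 was highest in C9 (0.839), in Itgam (0.878) and in Itgb2 (0.872), the last of which together encode the chains of complement receptor 3. Young mouse 2 was highest in C9 (0.868), at 0.952 CPM. The summed B cell and plasma cell list was highest in aged mouse 3 (0.892, at 101 CPM), where Igj made up 96.5 CPM. No cause was tested for these mice.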

How the results depend on the processing

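The count of members changed (3) was 4 with library size only, which added C2 (log2 fold change 0.65), and 2 with the replicate number as a block, under which C4b had 1.39 (edgeR adjusted p = 0.0636). In the other settings with all 8 mice it stayed at 3. The block gave 130 genes in the whole table and 2 in the wider complement lists. Deviations of same-numbered mice correlated at 0.21, 0.038, 0.20 and -0.030, and those of differently numbered mice at -0.30 to 0.17. Whether same-numbered mice were handled together was not tested, and values taken after subtracting group means cannot settle it. The whole table gave 488 genes with library size only (where the median over all genes was 0.14 instead of 0.029), 873 with DESeq2, 483 with limma-voom and 844 without aged mice 1 and 4. The wider complement lists gave 3, 7, 3 and 9 in the same order. Cfb changed sign, at 0.034 with upper-quartile scaling, 0.098 with library size only, 0.092 with limma-voom, 0.0015 with at least 10 counts in every library and 0.035 without aged mice 1 and 4, and was not called in any.

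With one mouse left out, the members called ranged from 0 to 4, the whole table from 8 to 733 and the wider lists from 0 to 3. The log2 fold changes ranged from 0.43 to 0.62 for C2, 1.18 to 1.61 for C3, 1.11 to 1.64 for C4b, -0.16 to 0.16 for Cfb and 1.45 to 1.89 for Cfi. The cause was not tested. C1qa, C1qb, C1qc and Serping1 stayed above 0 and were not called in any fit run. With 4 mice per group, C4a, Masp1, C6, Hc and Gpnmb rest on few counts.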
